A study of Mus musculus with 24 samples.

Results

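Duplication of the genome and division of the nucleus are carried out by proteins whose genes are switched on together in dividing cells. A set of 47 such genes was followed here through brown and white adipogenesis with and without EGCG (epigallocatechin gallate), the catechin known from green tea. The 47 genes were chosen by symbol, and all 47 were matched among the 37310 genes of the expression tables. They comprised 20 genes of DNA replication, 20 genes of mitosis and 7 genes for cyclins E and A, their kinase and cell cycle transcription factors. The cells were stromal vascular cells, a mixed fraction of fat tissue in which adipocyte precursors are found. C57BL/6 mice 6 weeks old had been the source, with inguinal fat as white adipose tissue (WAT) and interscapular fat as brown adipose tissue (BAT), and the cells were grown to near confluence. All cells then received the same adipogenic cocktail of insulin, dexamethasone and 3-isobutyl-methylxanthine until day 4, followed by insulin and T3 until day 8. EGCG was added to the medium of the treated cells and DMSO to that of the controls, and the labels give no dose. There were thus 8 groups (2 depots, 2 days, 2 treatments) with 3 libraries in each. Whether replicates were isolated separately is not stated, and p-values measure only the spread between these libraries, which may be technical.

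Before S phase, the MCM helicase, a ring of the products of Mcm2 to Mcm7, is loaded onto DNA by Cdc6 and Cdt1, and is later activated by Cdc45 and the GINS complex, to which Gins1 and Gins2 contribute. Pola1 and Prim1 belong to the polymerase that starts new strands, Pole is the catalytic subunit of a leading strand polymerase, Pcna is the sliding clamp and Rfc3 a subunit of its loader. Rrm1 and Rrm2 form ribonucleotide reductase, which makes deoxyribonucleotides, while Tyms and Tk1 supply thymidylate. Cyclins E and A (Ccne1, Ccne2, Ccna2) act with Cdk2 at the start and in the course of S phase, E2f1 activates genes of S phase, and Mybl2 and Foxm1 activate genes of G2 and mitosis. Entry into mitosis depends on cyclin B (Ccnb1, Ccnb2) with Cdk1, on the phosphatase Cdc25c and on the kinases Plk1 and Aurka. Bub1, Bub1b, Mad2l1 and Ttk belong to the spindle checkpoint, which restrains Cdc20, an activator of the anaphase-promoting complex. Top2a untangles chromosomes, Mki67 coats them, Cenpa and Cenpe act at centromeres, Birc5 and Aurkb belong to the chromosomal passenger complex, Kif11 and Kif20a are kinesins and Tpx2 is a spindle assembly factor. In cultured precursors, the adipogenic cocktail is known to be followed by a limited number of cell divisions and then by withdrawal from the cell cycle as fat cells mature.

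Replication genes and mitosis genes are known to differ in their promoters, E2F factors being typical of the former and the cell cycle genes homology region (CHR) of the latter. Promoters of 300 bases, from 250 before to 50 after the start of the gene, were taken from RefSeq on GRCm38.p6, a later build than that of the expression tables, and 36 of the 47 genes had an entry. The promoters of the 3 replication and the 3 mitosis genes with the highest mean expression are shown from 250 bases before to 30 after the start, 5′ to 3′ in the direction of the gene. Capitals mark matches on either strand to 3 motifs. The CHR was searched with the letters TTTGAA. For the CCAAT box the pentamer after which it is named was used. For E2F the first spelling allowed was TTCCCGC. The second spelling allowed for E2F was TTGGCGC. The third spelling searched for this family was TTCGCGC. The last of the E2F spellings in the search was TTGCCGC, and spellings that overlapped were marked together. The windows were chr2:132253151-132253430 (minus strand), chr7:102441445-102441724 (plus), chr12:24708004-24708283 (plus), chr11:99024160-99024439 (minus), chr4:118437314-118437593 (minus) and chr5:30666636-30666915 (plus).
Pcna: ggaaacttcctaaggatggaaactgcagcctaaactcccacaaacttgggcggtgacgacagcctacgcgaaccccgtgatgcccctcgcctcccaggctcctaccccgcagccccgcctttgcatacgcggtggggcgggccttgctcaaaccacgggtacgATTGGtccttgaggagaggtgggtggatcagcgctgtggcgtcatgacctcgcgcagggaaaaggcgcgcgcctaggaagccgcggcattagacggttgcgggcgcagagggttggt
Rrm1: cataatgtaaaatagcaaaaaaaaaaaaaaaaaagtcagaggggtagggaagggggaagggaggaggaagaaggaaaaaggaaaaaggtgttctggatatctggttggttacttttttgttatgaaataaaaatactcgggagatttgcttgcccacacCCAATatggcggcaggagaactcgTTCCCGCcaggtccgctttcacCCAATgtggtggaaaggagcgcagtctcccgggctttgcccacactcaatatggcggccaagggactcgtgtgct
Rrm2: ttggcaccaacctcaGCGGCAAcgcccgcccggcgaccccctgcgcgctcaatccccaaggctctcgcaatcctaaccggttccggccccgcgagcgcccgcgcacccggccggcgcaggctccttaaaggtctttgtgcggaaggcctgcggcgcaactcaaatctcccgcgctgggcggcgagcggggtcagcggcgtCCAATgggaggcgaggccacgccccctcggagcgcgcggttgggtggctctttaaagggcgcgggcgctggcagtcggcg
Top2a: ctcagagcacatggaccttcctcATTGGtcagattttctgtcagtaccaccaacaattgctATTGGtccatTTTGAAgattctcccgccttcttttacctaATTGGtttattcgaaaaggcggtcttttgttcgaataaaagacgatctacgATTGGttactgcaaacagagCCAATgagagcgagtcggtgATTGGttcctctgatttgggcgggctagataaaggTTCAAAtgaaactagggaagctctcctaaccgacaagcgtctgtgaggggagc
Cdc20: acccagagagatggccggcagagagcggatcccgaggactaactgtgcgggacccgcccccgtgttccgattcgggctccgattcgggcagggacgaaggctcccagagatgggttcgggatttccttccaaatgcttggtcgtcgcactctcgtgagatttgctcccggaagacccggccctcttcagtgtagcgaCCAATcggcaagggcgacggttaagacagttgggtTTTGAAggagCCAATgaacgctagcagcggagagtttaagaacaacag
Cenpa: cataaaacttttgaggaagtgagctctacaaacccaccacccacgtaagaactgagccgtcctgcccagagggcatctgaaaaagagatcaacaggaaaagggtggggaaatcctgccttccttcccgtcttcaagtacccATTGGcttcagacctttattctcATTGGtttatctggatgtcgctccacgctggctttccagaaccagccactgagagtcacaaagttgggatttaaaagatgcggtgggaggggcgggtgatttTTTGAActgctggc

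In these windows Top2a held 2 CHR matches and 6 CCAAT boxes, and Cdc20 and Cenpa held 1 CHR match each, whereas none of the 3 replication promoters held a CHR match. Rrm1 and Rrm2 held 1 E2F match each, and Pcna held none of the E2F words searched. Among all members with an entry, a CHR match stood in 11 of 16 mitosis promoters (68.75%) and in 2 of 16 replication promoters (12.5%), those of Mcm2 and Cdc45, against 18.1% of the first listed promoters of 27025 genes. An E2F match stood in 11 of 16 replication promoters (68.75%) and in 3 of 16 mitosis promoters (18.8%), those of Ccnb1, Cdk1 and Mki67, against 9.69% of all genes. CCAAT boxes were common in both classes, in 12 of 16 replication and 14 of 16 mitosis promoters, against 37.9% of all genes. Further genes of the same processes, listed separately, showed E2F matches in 48.6% of 35 replication promoters and 26.8% of 56 mitosis promoters, and CHR matches in 14.3% and 62.5% respectively. A match to these letters is a description of the sequence and not evidence of a bound site.

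**Figure D1:**
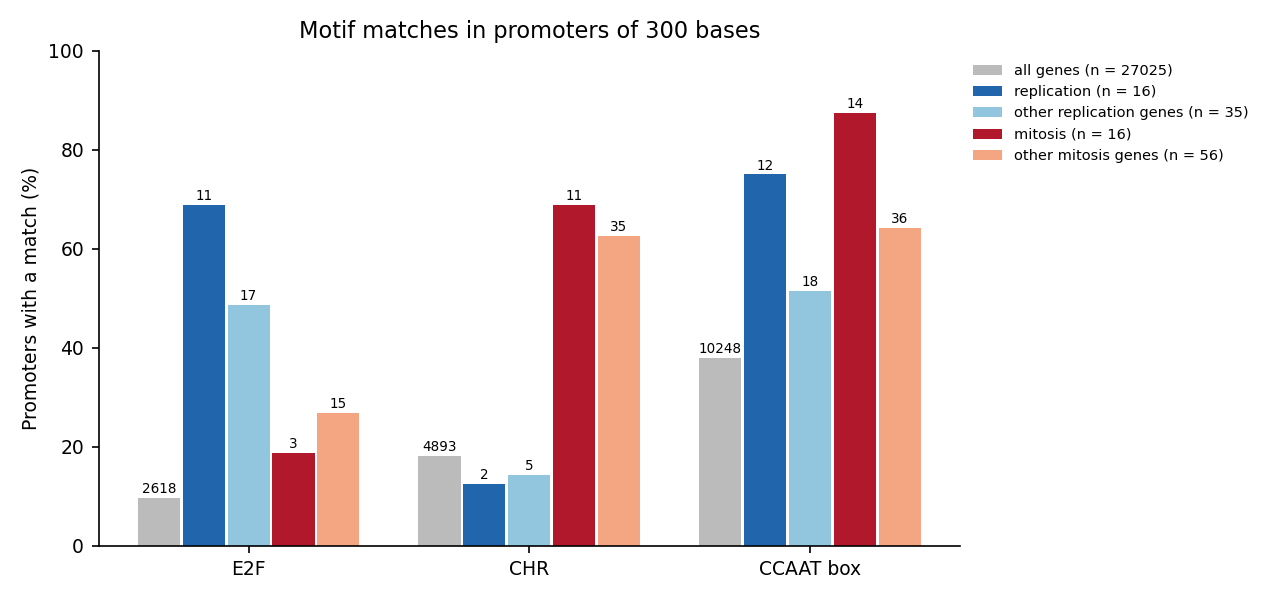
Share of promoters (y axis, %) with at least 1 match to each motif (x axis), for all genes, the replication and mitosis genes studied here and the other genes of both processes; the number above a bar is the number of promoters with a match. E2F matches were most frequent in replication promoters (11 of 16) and CHR matches in mitosis promoters (11 of 16).

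Expression was given as FPKM, fragments counted relative to gene length and to the reads of the library, in a table for replicates 1 and 2 and another for replicate 3, which had been scaled separately. All tests therefore used the 16 libraries of replicates 1 and 2, and replicate 3 served for values and direction. Depth on genes ran from 39452696 to 52893848 reads for replicates 1 and 2 and from 16392420 to 41675643 for replicate 3. In replicate 3 of the WAT day 8 EGCG group, 61.0% of the reads lay on 5 genes, against 3.64% to 10.5% in the other libraries, and the median ratio of its FPKM values to the average library was 0.458, against 0.906 to 1.23 elsewhere. Its values are shown as deposited, and no level was called higher or lower from them in the main tests. Otherwise this library served in comparisons within a library, in signs of replicate 3 and in an alternative fit of both tables. All 47 genes reached the minimum for testing (FPKM of at least 1 in at least 2 of the 16 libraries), but Cdc6, Pole, Mybl2, Cdc25c, Bub1, Ttk and Cenpe did so only in the day 4 libraries, and so were bound to be lower on day 8. In the annotation used for the tables (NCBIM37, the mm9 assembly) 15 of the 47 genes overlap another gene, among them Mcm7, Cdc45, Gins2, Tk1, Ccne2, Ccna2, Cdc20 and Kif20a, and their counts may hold reads of the neighbour. Of the genes described most often, which overlap no other gene, Rrm1 lies at chr7:109590209-109618285, Rrm2 lies at chr12:25393106-25399011, E2f1 lies at chr2:154385143-154395628, Plk1 lies at chr7:129302951-129313389 and Mcm2 lies at chr6:88833469-88848774.

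Both classes were highest in BAT on day 4 and had dropped in both depots by day 8, the mitosis genes by more. The summed FPKM of the 20 replication genes was 255 to 271 in the 3 WAT control libraries of day 4 and 313 to 325 in those of BAT, and on day 8 it was 91.4 to 96.3 and 88.2 to 94.8. For the 20 mitosis genes the corresponding sums were 165 to 168, 281 to 308, 34.6 to 36.7 and 32.9 to 39.9. The replication sum exceeded the mitosis sum in all 24 libraries.

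Relative to the replication genes, the mitosis genes had a smaller sum with EGCG in each depot and on each day. On day 8 this depended on the genes chosen, and in BAT on day 4 separate lists of further genes changed nearly alike. The sum over mitosis genes divided by that over replication genes, a ratio within a library that no scaling between libraries can alter, was 0.620 to 0.648 in WAT controls of day 4 and 0.488 to 0.538 with EGCG. In BAT on day 4 it was 0.899 to 0.962 in controls and 0.707 to 0.727 with EGCG. The day 8 ratios were 0.370 to 0.401 against 0.306 to 0.323 in WAT and 0.373 to 0.427 against 0.306 to 0.327 in BAT. The 3 EGCG libraries lay below the 3 control libraries in all 4 pairs of groups, the WAT day 8 EGCG replicate 3 included. Because the sums are led by a few abundant genes, the mean log2 FPKM of the mitosis genes minus that of the replication genes, in which each gene counts alike, was also taken. It was -0.16 to -0.05 in controls and -0.44 to -0.34 with EGCG in WAT on day 4, and 0.28 to 0.37 and -0.07 to -0.003 in BAT. On day 8 this difference was -0.92 to -0.82 against -1.04 to -0.98 in WAT and -0.87 to -0.62 against -1.06 to -1.02 in BAT, again without overlap. When Pcna, Rrm1 and Rrm2 were left out of the replication sum, a choice made after seeing the values, the ratios of day 4 stayed apart (1.13 to 1.20 against 0.931 to 0.999 in WAT, 1.63 to 1.74 against 1.34 to 1.43 in BAT). On day 8 they lay side by side in WAT (0.714 to 0.779 against 0.691 to 0.713) and overlapped in BAT (0.742 to 0.872 against 0.707 to 0.781). The ratio of the class medians overlapped on day 8 in both depots. The separate lists of further genes of both processes are described further below. In them the median log2 change with EGCG on day 8 was 0.17 for mitosis and 0.11 for replication in WAT, and 0.22 and 0.22 in BAT. These lists thus did not show a lower mitosis median on that day. On day 4 their medians were -0.22 for mitosis and -0.10 for replication in WAT, but nearly level in BAT, 0.13 and 0.15. No p-value is given for these summaries over chosen genes. In mixed cultures, fewer cycling cells and less RNA per cycling cell cannot be told apart.

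**Figure D2:**
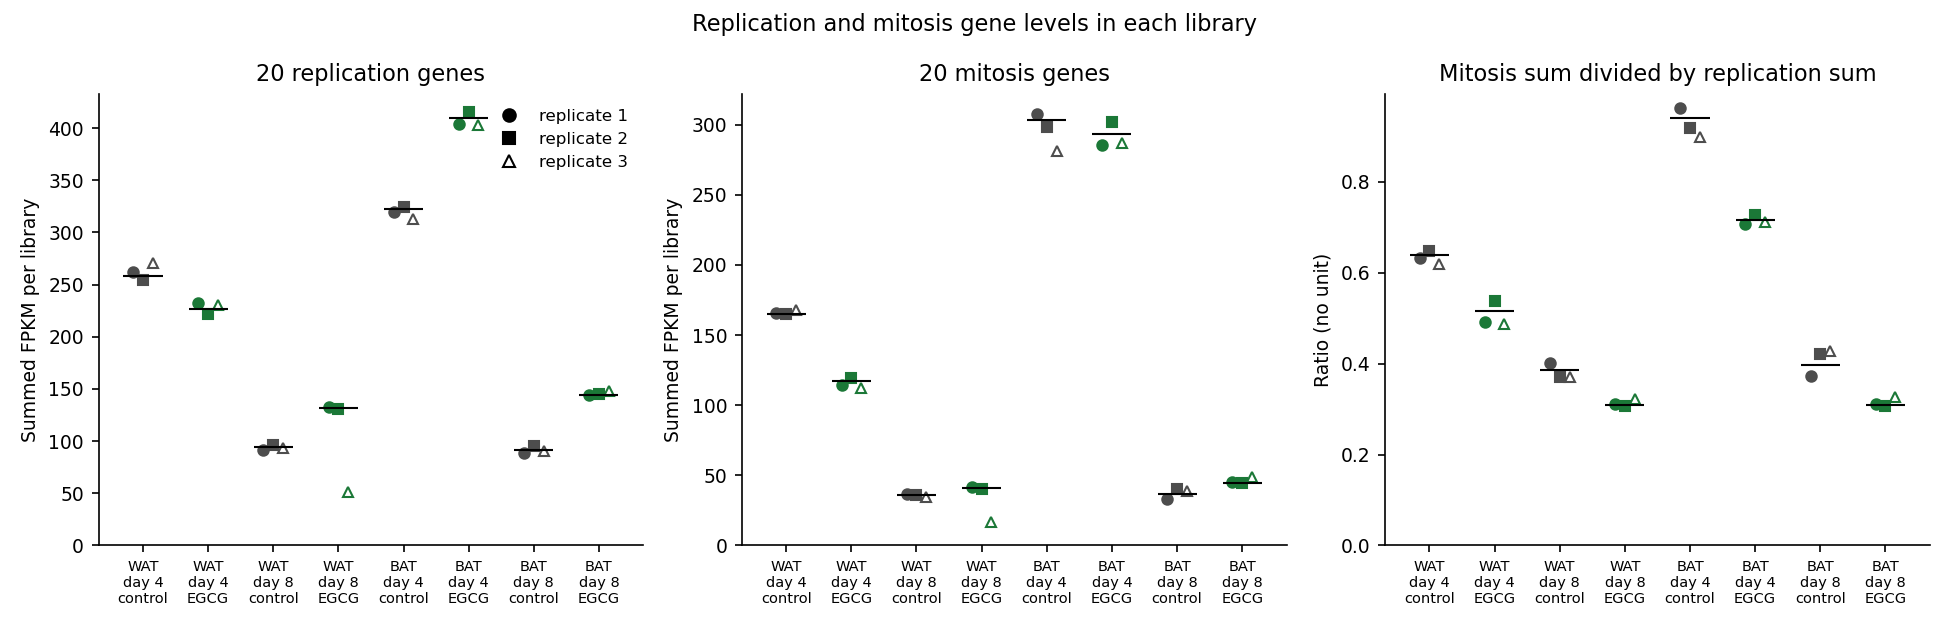
Summed FPKM per library of the 20 replication genes (left) and the 20 mitosis genes (middle), and the mitosis sum divided by the replication sum (right), for the 8 groups (x axis); symbols mark the 3 replicates, grey is control, green is EGCG, and the line is the mean of replicates 1 and 2. Sums fall from day 4 to day 8, and every EGCG library has a lower ratio than every control library of its depot and day; replicate 3 of WAT day 8 EGCG, with 61.0% of its reads on 5 genes, is low in both sums but not apart in the ratio.

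The comparison of day 8 with day 4 followed the genes across adipogenesis itself. All 47 genes fell in control WAT and all 47 in control BAT (limma, adjusted p under 0.05), where 33.2% and 40.4% of all 14095 genes tested were called lower and 27.7% and 28.7% higher. The median log2 change was -1.20 for the replication and -1.63 for the mitosis genes in WAT, and -1.68 and -2.47 in BAT, while the median of all genes was -0.03 in WAT and -0.10 in BAT. Median-ratio scaling of the libraries moved the latter to 0.02, and all 47 genes were still called lower in both depots. Apart from the 7 genes that entered through day 4 alone, the remaining 40 all fell in both. Every log2 change here is of FPKM + 1, so that for low genes the change is understated.

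On the log2(FPKM + 1) scale Top2a had the largest fall of the mitosis genes in both depots. Its FPKM in control WAT was 19.8, 20.2 and 19.3 in replicates 1, 2 and 3 of day 4 and 3.32, 3.27 and 3.05 on day 8 (log2 change -2.29, SE 0.0785, adjusted p = 1.33e-09). In control BAT it was 41.0, 37.8 and 32.5 on day 4 and 3.39, 4.21 and 3.50 on day 8 (log2 change -3.08, SE 0.0785, adjusted p = 1.05e-10), with all day 8 libraries far below those of day 4. Mcm5 had the largest fall of the replication genes, from 11.1, 9.05 and 11.5 to 1.58, 2.05 and 1.90 FPKM in WAT (log2 change -1.97, SE 0.127, adjusted p = 1.25e-07) and from 15.2, 15.2 and 15.2 to 1.05, 1.59 and 1.49 in BAT (log2 change -2.81, SE 0.127, adjusted p = 4.06e-09). On the same scale Gins1 fell least of the replication genes in WAT, from 3.53, 2.21 and 3.76 to 1.65, 1.72 and 1.67 FPKM (-0.51), and Rfc3 in BAT, from 3.19, 3.57 and 3.34 to 1.66, 1.33 and 1.56 FPKM (-0.82). The smallest fall of a mitosis gene in WAT was that of Mad2l1, from 10.3, 10.4 and 10.0 to 3.58, 3.70 and 3.74 FPKM (-1.29).

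The order of the mitosis genes was another when mean FPKM of replicates 1 and 2 was divided directly, since the addition of 1 compresses changes of low genes. Cdc25c, with 3.48, 3.56 and 2.97 FPKM on day 4 and 0.177, 0.287 and 0.233 on day 8 in control BAT, had the smallest log2 change of the class there (-1.88) but the lowest ratio of day 8 to day 4, 0.0659. Bub1 followed with a ratio of 0.0724, against 0.0963 for Top2a. In control WAT the lowest ratio was that of Ttk, at 0.0808, with 3.00, 3.22 and 3.91 FPKM on day 4 and 0.194, 0.309 and 0.374 on day 8, against 0.165 for Top2a. Cdc25c, Bub1 and Ttk are among the genes that entered the tests through day 4 alone.

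Pcna, the most abundant of the 47, remained well expressed on day 8. It went from 81.5, 78.8 and 85.2 to 29.0, 30.5 and 29.9 FPKM in control WAT (log2 change -1.40, SE 0.0554, adjusted p = 4.11e-09). Ccne1 went from 13.5, 14.7 and 15.5 to 4.14, 5.28 and 4.95 FPKM in control BAT (log2 change -1.41). Among the cyclin and factor genes Ccna2 fell most, with 16.2, 15.5 and 18.0 FPKM on day 4 and 1.30, 1.45 and 2.27 on day 8 in control BAT (log2 change -2.83). Cdk2 and E2f1 changed least of all 47 genes in both depots. Cdk2 was at 13.1, 13.8 and 12.1 FPKM on day 4 and 9.99, 10.5 and 9.98 on day 8 in control BAT (log2 change -0.36), and E2f1 at 11.2, 11.6 and 11.2 and 7.30, 6.68 and 7.70 (log2 change -0.64).

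With EGCG the mitosis genes fell from day 4 to day 8 in both depots, but a nucleotide supply gene of WAT did not. In EGCG-treated WAT 43 genes were called lower and 1, Rrm1, higher, where 27.7% and 31.8% of all genes were called lower and higher. Rfc3, Cdk2 and E2f1 did not pass the test, with log2 changes of -0.14, -0.15 and -0.06. In EGCG-treated BAT all 47 genes fell (background 28.2%). Both counts include Cdc6, Pole, Mybl2, Cdc25c, Bub1, Ttk and Cenpe, which entered the tests through day 4 alone, so that the filter favoured their fall. The other genes all fell in BAT as well. Median log2 changes were -0.78 for replication and -1.13 for mitosis genes in WAT, and -1.51 and -2.18 in BAT. Rrm1 stood at 15.2, 15.2 and 15.3 FPKM on day 4 in EGCG-treated WAT and at 23.1, 22.9 and 8.05 on day 8 (log2 change 0.57, SE 0.0513, adjusted p = 2.18e-06), the value of replicate 3 on day 8 being from the library with 61.0% of reads on 5 genes. On the log2(FPKM + 1) scale Top2a had the largest fall among mitosis genes in both (WAT -1.71, BAT -2.85), and Mcm5 that among replication genes (WAT -1.60, BAT -2.48). By the direct ratio of day 8 to day 4 the lowest mitosis genes were Bub1 in WAT (0.182, against 0.260 for Top2a) and Ttk in BAT (0.0756, against 0.116). The lowest replication gene was Cdc6 in both (0.210 and 0.0952). Bub1, Ttk and Cdc6 are among the genes that entered through day 4 alone. Rrm1 fell least among replication genes in BAT on either scale (log2 change -0.40, ratio 0.753).

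**Figure D3:**
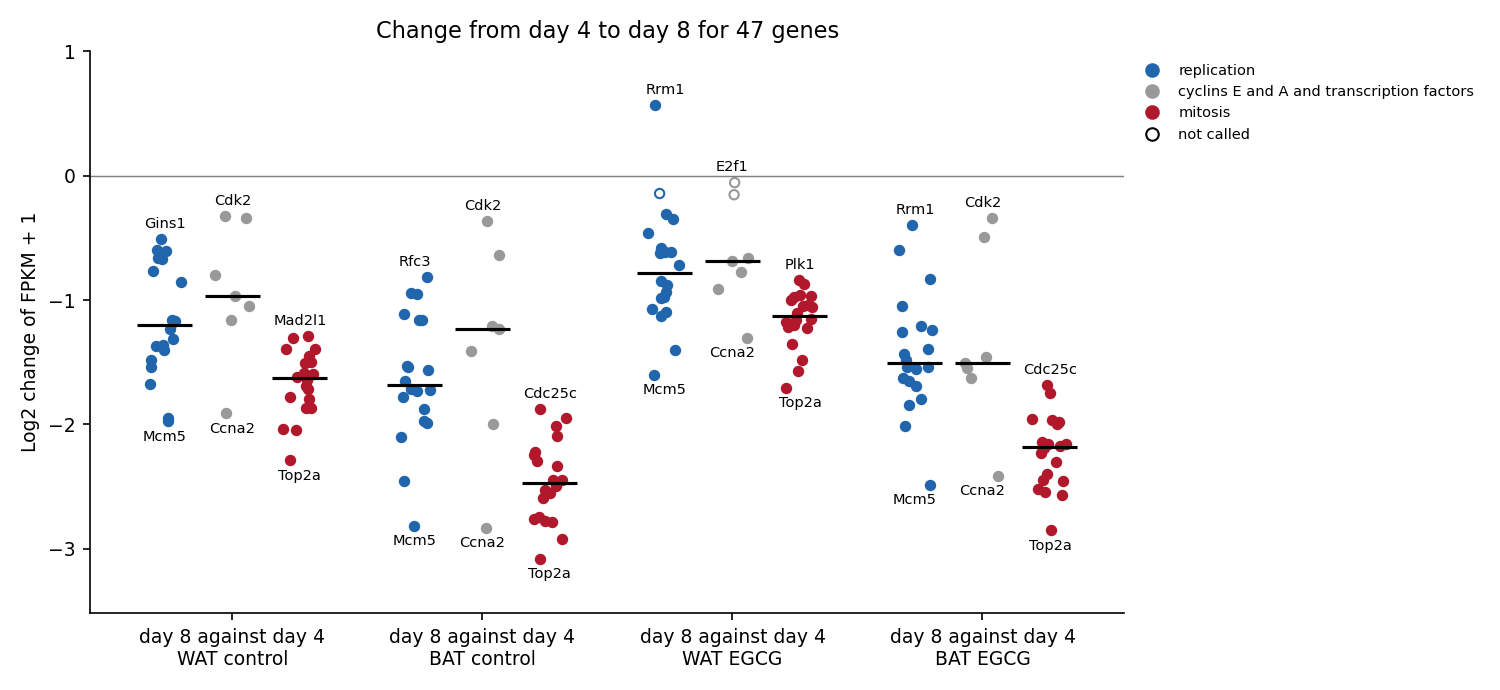
Log2 change of FPKM + 1 from day 4 to day 8 (y axis) of the 20 replication genes (blue), 7 cyclin and factor genes (grey) and 20 mitosis genes (red) in the 4 depot and treatment combinations (x axis); filled points passed the test, open points did not, the black line is the median and the extremes are named. All points lie below 0 except Rrm1 in EGCG-treated WAT, at 0.57, and the medians of the mitosis genes lie below those of the replication genes.

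The effect of EGCG on day 4, at the end of the induction, was read first in WAT. There the mitosis genes were lower with EGCG, and the replication genes changed less. Of the 20 mitosis genes 16 fell and none rose, and of the 20 replication genes 6 fell and none rose, so that 26 of all 47 (55.3%) fell, against 19.3% of all genes tested. E2f1 was the single member that rose, against 34.4% of all genes. The median log2 change was -0.38 for mitosis and -0.09 for replication genes, and 0.09 for all genes. Scaling the libraries by the median ratio of all genes moved the median of all genes to -0.02, and 35 members, all lower, were then called, all 20 mitosis and 11 replication genes among them, while E2f1 no longer passed.

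Genes of mitotic entry showed the largest falls. Plk1 had 8.98, 9.77 and 9.33 FPKM in control and 4.38, 4.54 and 4.68 in EGCG-treated WAT (log2 change -0.92, SE 0.119, adjusted p = 5.33e-05). Ccnb2 went from 12.1, 12.3 and 11.9 to 6.22, 7.11 and 5.87 FPKM (log2 change -0.78, SE 0.0950, adjusted p = 3.34e-05). For Cdk1 the values were 11.8, 11.5 and 12 and 6.95, 7.03 and 7.55 FPKM (log2 change -0.66, SE 0.0812, adjusted p = 3.59e-05). All 3 EGCG libraries lay below all 3 controls for each of these genes. Ccnb1 (-0.65) and Cdc25c (-0.34) also fell, and Aurka missed the threshold at -0.20. Among checkpoint genes and their target, Bub1b (-0.48), Cdc20 (-0.42) and Ttk (-0.34) fell, while Mad2l1 (-0.29) and Bub1 did not pass. Bub1 had 4.08, 4.06 and 3.69 FPKM in controls and 3.61, 3.61 and 3.00 with EGCG (-0.14). Of the 9 chromosome and spindle genes 8 fell, from -0.47 for Kif11 to -0.28 for Mki67, and Cenpe (-0.16) did not pass. Top2a, for example, had 19.8, 20.2 and 19.3 FPKM in controls and 14.2, 15.5 and 13.6 with EGCG.

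In the replication class the falls were in the MCM helicase and in nucleotide supply. Mcm6 fell from 15.5, 15.6 and 15.9 to 9.58, 9.91 and 10.5 FPKM (log2 change -0.62, SE 0.0566, adjusted p = 3.31e-06), with no overlap. Mcm5 (-0.51), Mcm2 (-0.41) and Mcm3 (-0.20) fell as well, and Mcm4 (-0.12) and Mcm7 (-0.09) did not pass. Tk1 (-0.31) and Rrm1 (-0.27) fell, whereas Rrm2 stood at 18.8, 19.7 and 18.1 FPKM in controls and 19.2, 17.1 and 17.9 with EGCG, ranges that overlap. None of the 5 helicase loading and activation genes and none of the 5 DNA synthesis genes passed. After median-ratio scaling more replication genes were called lower, not all of them MCM or nucleotide supply genes. Cdc6 had the highest replication value, 0.21, from 1.15, 1.23 and 1.66 to 1.64, 1.43 and 1.56 FPKM. Among the remaining genes Ccna2 (-0.49), Foxm1 (-0.34), Ccne2 (-0.28) and Mybl2 (-0.25) fell. E2f1 rose from 9.75, 10.7 and 10.7 to 13.2, 11.8 and 12.4 FPKM (log2 change 0.27, SE 0.0650, adjusted p = 0.00413), with each EGCG library above each control.

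In BAT on day 4 the pattern was another: replication genes were higher with EGCG and most mitosis genes did not pass the test. Of the 20 replication genes 14 rose and 1 fell, and of the 20 mitosis genes 1 rose and 2 fell. Over all 47 genes 17 rose (36.2%, against 27.9% of all genes tested) and 3 fell (6.38%, against 20.6%). Median log2 changes were 0.25 for replication, -0.05 for mitosis and 0.03 for all genes. The count was 20 with both replicates but 9 without EGCG replicate 2 and 10 without control replicate 1, the 14 rises of replication genes becoming 5 and 6.

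Ribonucleotide reductase led the rise. Rrm2 had 27.8, 30.0 and 25.3 FPKM in control and 59.4, 55.6 and 49.0 in EGCG-treated BAT (log2 change 0.97, SE 0.132, adjusted p = 8.18e-05). Rrm1 rose from 27.1, 28.2 and 25.1 to 42.4, 41.9 and 37.9 FPKM (log2 change 0.59, SE 0.0513, adjusted p = 2.13e-06). Both genes were higher in every EGCG library than in every control. Smaller rises were seen for Cdt1 (0.47), Rfc3 (0.41), Cdc6 (0.40), Mcm3 (0.40), Pola1 (0.31), Gins2 (0.30), Pole (0.29), Mcm2 (0.28), Mcm7 (0.22), Pcna (0.22), Mcm4 (0.21) and Cdc45 (0.20). Tk1, the salvage enzyme for thymidine, went against its class, from 12.6, 12.6 and 13 to 9.69, 10.3 and 11.6 FPKM (log2 change -0.31, SE 0.0657, adjusted p = 0.0023).

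The factors E2f1 and Mybl2 rose too, E2f1 from 11.2, 11.6 and 11.2 to 18.6, 18.9 and 19.4 FPKM (log2 change 0.67, SE 0.0650, adjusted p = 5.39e-06) and Mybl2 by 0.36 on the log2 scale. In the mitosis class Plk1 fell from 16.7, 18.4 and 17.7 to 12.9, 13.6 and 14.2 FPKM (log2 change -0.38, SE 0.119, adjusted p = 0.0201) and Bub1b fell by 0.25, while Tpx2 rose from 15, 15.8 and 14.7 to 17.5, 18.5 and 17.5 FPKM (log2 change 0.21, SE 0.0606, adjusted p = 0.0128). Top2a, with 41.0, 37.8 and 32.5 FPKM in controls and 36.8, 39.9 and 35.1 with EGCG, overlapped between the groups, as did Cdk1 with 16.6, 18.0 and 17.4 and 17.2, 18.7 and 17.8.

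The difference between the depots in the EGCG effect on day 4 was itself tested as an interaction. Values here are differences between 2 log2 changes. The EGCG effect was higher in BAT than in WAT for 22 genes and lower for none, where 12.0% of all genes were called higher and 16.1% lower. All 6 MCM genes were among the 22, with values from 0.31 for Mcm7 to 0.75 for Mcm6, as were Rrm2 (log2 difference 1.05, SE 0.186, adjusted p = 0.00178) and Rrm1 (log2 difference 0.86, SE 0.0725, adjusted p = 1.06e-05). All 3 transcription factors were called as well, Mybl2 at 0.61, Foxm1 at 0.47 and E2f1 at 0.40. Of the mitosis genes 7 were called, Cdk1 (0.71) and Ccnb2 (0.66) having the largest values. Median values were 0.34 for replication and 0.33 for mitosis genes, against -0.06 for all genes. The 11 replication genes called became 7 without WAT EGCG replicate 2 and 7 without BAT EGCG replicate 2. The 7 mitosis genes became 4 without WAT EGCG replicate 1, WAT control replicate 1, BAT EGCG replicate 2 or BAT control replicate 2, 3 with no filter, 11 with only the groups compared, 13 with voom and 14 after median-ratio scaling.

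**Figure D4:**
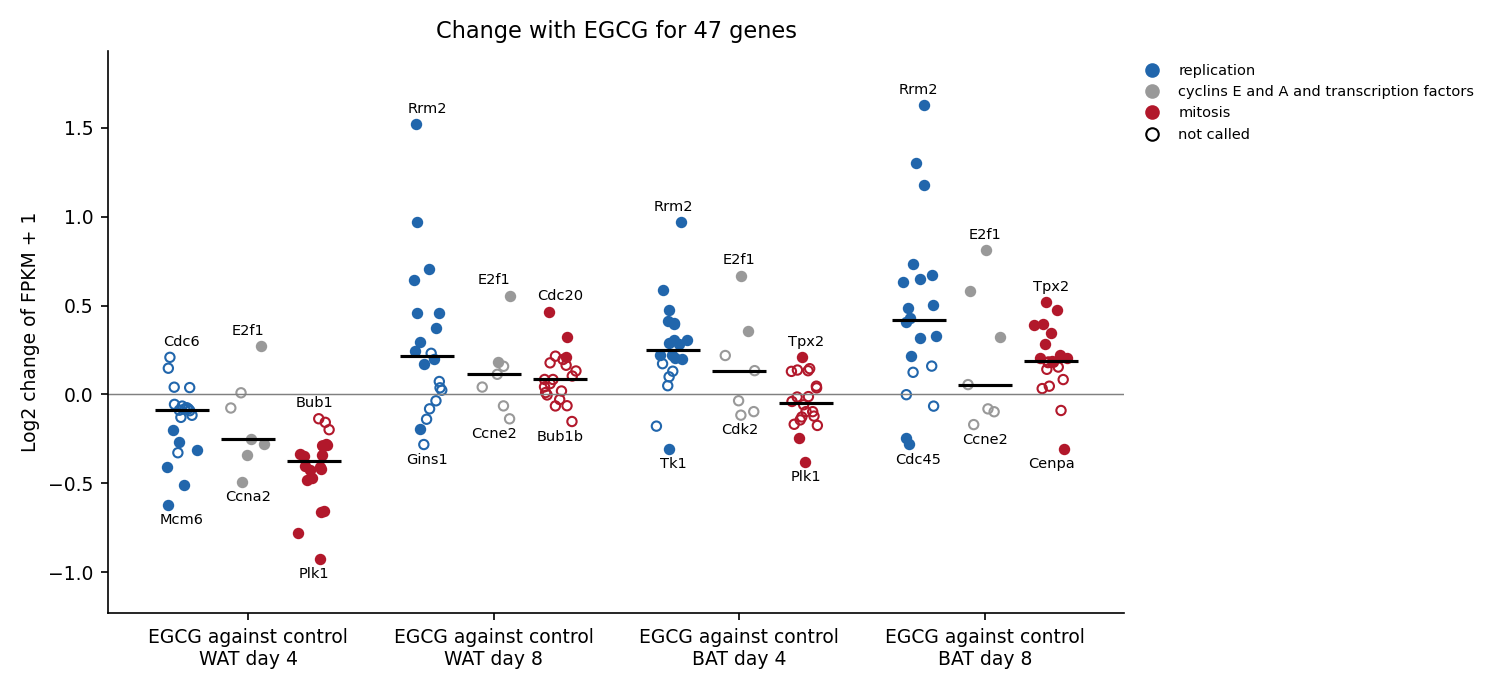
Log2 change of FPKM + 1 with EGCG (y axis) of the replication (blue), cyclin and factor (grey) and mitosis genes (red) in the 4 depot and day combinations (x axis); filled points passed the test, open points did not, the black line is the class median and the extremes are named. On this scale the replication median lies above the mitosis median in each combination, and Rrm2 is the highest replication gene in all but WAT on day 4.

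On day 8, at the end of differentiation, EGCG was accompanied by higher levels of some replication genes in WAT. Of the 20 replication genes 11 rose and 1 fell, and of the 20 mitosis genes 3 rose and none fell. Over the 47 genes 16 rose (34.0%), a smaller share than the 44.7% of all genes called higher, and 1 fell (2.13%, against 18.9%). The median log2 change was 0.22 for replication, 0.08 for mitosis and 0.17 for all genes, so that the replication genes as a class lay near the median of all genes and the mitosis genes below it. After median-ratio scaling, which set the median of all genes to 0.01, 8 members were called higher and 5 lower, and the class medians were 0.045 for replication and -0.037 for mitosis genes. After quantile normalization the medians were level, 0.106 for replication and 0.108 for mitosis genes. Leaving out control replicate 2 lowered the count of 17 to 11 and that of mitosis genes from 3 to 1, and the 2 control libraries of this group differed from each other more than those of any other group.

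The rises were again led by ribonucleotide reductase. Rrm2 had 3.71, 4.82 and 4.95 FPKM in control WAT and 14.9, 13.3 and 5.55 with EGCG (log2 change 1.52, SE 0.132, adjusted p = 1.17e-06). Rrm1 went from 11.7, 10.9 and 10.9 to 23.1, 22.9 and 8.05 FPKM (log2 change 0.97, SE 0.0513, adjusted p = 2.41e-08). For both genes replicates 1 and 2 with EGCG lay above all controls, and the third EGCG value is from the library with 61.0% of its reads on 5 genes. After median-ratio scaling of replicate 3, 14 of 17 called genes had the same sign in it, the exceptions being Mcm7, Cdk2 and Cdc20. Cdt1 (0.70), Mcm2 (0.64), Prim1 (0.46), Rfc3 (0.46), Tyms (0.37), Pcna (0.29), Mcm6 (0.24), Mcm7 (0.20) and Mcm4 (0.17) rose by less. Cdc45 fell by 0.19, from 2.07, 1.96 and 1.80 to 1.71, 1.57 and 0.649 FPKM, and Gins1 had the lowest value, -0.28, without passing. E2f1 rose from 8.15, 7.56 and 7.16 to 11.8, 12.2 and 4.27 FPKM (log2 change 0.56, SE 0.0650, adjusted p = 1.44e-05) and Cdk2 by 0.18. The 3 mitosis genes that rose were Cdc20 (0.47), Ttk (0.33) and Tpx2 (0.21). Cdc20 was low, at 2.36, 2.04 and 3.60 FPKM in controls and 3.96, 2.92 and 1.31 with EGCG, and overlaps Elovl1 in the annotation. None of the 6 genes of mitotic entry passed, their values running from -0.003 for Aurka to 0.22 for Ccnb2. Bub1b had the lowest value of the mitosis genes, -0.15, with 1.60, 1.71 and 1.18 FPKM in controls and 1.33, 1.44 and 0.621 with EGCG.

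In BAT on day 8 more genes of both classes were called higher with EGCG than in WAT. The share of mitosis genes called higher (50.0%) was near that of all genes (46.5%), and that of replication genes was 70.0%. Of the 20 replication genes 14 rose and 2 fell, and of the 20 mitosis genes 10 rose and 1 fell. Over the 47 genes 27 rose (57.4%, against 46.5% of all genes) and 3 fell (6.38%, against 26.1%). The median log2 change was 0.42 for replication, 0.19 for mitosis and 0.17 for all genes, which puts the mitosis genes near the median of all genes. After median-ratio scaling (median of all genes 0.02) 17 members were called higher and 5 lower, with 13 replication but 2 mitosis genes among the higher ones, and class medians of 0.29 and 0.09. The 10 rises of mitosis genes became 2 without control replicate 1, 5 without EGCG replicate 1 and 5 without EGCG replicate 2, 4 when only the 2 groups compared were fitted and 6 with no filter on low values. In replicate 3 as deposited 27 of 30 called genes had the same sign, the exceptions being Ccna2, Mki67 and Cenpa. After median-ratio scaling of replicate 3 it was again 27, the exceptions being Tk1, Ccna2 and Mki67.

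All 4 nucleotide supply genes rose. Rrm2 went from 3.71, 5.34 and 4.93 to 16.7, 15.1 and 17.4 FPKM (log2 change 1.63, SE 0.132, adjusted p = 3.37e-07) and Rrm1 from 11.8, 12.8 and 12.9 to 30.7, 32.8 and 31.5 (log2 change 1.30, SE 0.0513, adjusted p = 7.8e-10), with no overlap between the groups. Tyms rose by 0.67 and Tk1 by 0.33, though Tk1 had the other sign in replicate 3 after median-ratio scaling. Of the MCM genes Mcm2 rose most, from 2.37, 3.04 and 2.67 to 6.96, 7.74 and 7.82 FPKM (log2 change 1.18, SE 0.0850, adjusted p = 1.27e-07), followed by Mcm3 (0.74), Mcm5 (0.50), Mcm4 (0.48) and Mcm6 (0.43). Mcm7 instead fell, from 11.3, 11.4 and 10.9 to 9.71, 9.11 and 9.86 FPKM (log2 change -0.25, SE 0.0739, adjusted p = 0.0101). Mcm7 overlaps Cops6 and Ap4m1 in the annotation, and whether reads were assigned by strand is not given in the sources used here. Cdc45 fell from 2.63, 2.53 and 2.67 to 1.97, 1.92 and 2.16 FPKM (log2 change -0.28, SE 0.0648, adjusted p = 0.002).

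E2f1 rose from 7.30, 6.68 and 7.70 to 13.3, 12.7 and 13.8 FPKM (log2 change 0.81, SE 0.0650, adjusted p = 3.17e-07), Foxm1 by 0.58 and Ccna2 by 0.32. E2f1 was thus the only gene of the 47 that was called higher with EGCG in both depots on both days, although the call in WAT on day 4 was lost after median-ratio scaling. Tpx2 had the largest log2 change of the mitosis genes, from 1.82, 2.00 and 2.14 to 3.15, 3.19 and 3.64 FPKM (log2 change 0.52, SE 0.0606, adjusted p = 8.68e-06). Cdc20 (0.47), Plk1 (0.39), Kif20a (0.39) and Mad2l1 (0.35) followed. The centromeric histone gene Cenpa went the other way, with 3.37, 3.99 and 3.51 FPKM in controls and 2.95, 2.61 and 3.89 with EGCG (log2 change -0.31, SE 0.0912, adjusted p = 0.00973), but its EGCG value of replicate 3 lay within the control range.

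Tested as an interaction on day 8, the EGCG effect was higher in BAT than in WAT for 10 genes and lower for 4, where 19.4% and 19.7% of all genes were called higher and lower. The higher ones included Mcm3 (log2 difference 0.66, SE 0.109, adjusted p = 0.00062), Mcm5 (0.64), Mcm2 (0.53), Foxm1 (0.42), Bub1b (0.37), Tk1 (0.36), Rrm1 (0.33), Tpx2 (0.31), Mcm4 (0.31) and E2f1 (0.26). The lower ones were Mcm7 (log2 difference -0.45, SE 0.105, adjusted p = 0.00553), Ttk (-0.42), Prim1 (-0.30) and Cdk2 (-0.28). The shares of the 47 genes, 21.3% higher and 8.51% lower, were near and below those of all genes.

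Whether the EGCG effect differed between the days was tested in the same way within each depot. In WAT it was higher on day 8 than on day 4 for 31 genes and lower for none, against 29.7% and 19.7% of all genes. In replicate 3, which includes the library with 61.0% of its reads on 5 genes, 11 of the 31 had the same sign as deposited. After median-ratio scaling all 31 had it. Of the mitosis genes 16 were called and of the replication genes 12, with medians of 0.45 and 0.33 against 0.07 for all genes. Rrm2 (log2 difference 1.61, SE 0.186, adjusted p = 3.71e-05), Rrm1 (log2 difference 1.23, SE 0.0725, adjusted p = 3.02e-07), Mcm2 (1.05) and Mcm6 (0.87) had the largest values among replication genes, and Plk1 (log2 difference 1.03, SE 0.168, adjusted p = 0.00043) and Ccnb2 (1.0) among mitosis genes. In BAT 15 genes (31.9%) were called higher and 3 (6.38%) lower, both below the 34.7% and 20.6% of all genes, and after median-ratio scaling, which moved the median of all genes from 0.13 to 0.01, 10 higher and 4 lower. The class medians were 0.20 for replication and 0.22 for mitosis genes, and the 5 mitosis genes called became 9 without day 8 control replicate 2. Mcm2 (log2 difference 0.90, SE 0.12, adjusted p = 6.99e-05), Plk1 (log2 difference 0.77, SE 0.168, adjusted p = 0.00219) and Rrm1 (log2 difference 0.71, SE 0.0725, adjusted p = 9.08e-06) led, and Cdc45 (-0.48), Mcm7 (-0.47) and Ccne2 (-0.39) were lower.

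**Figure D5:**
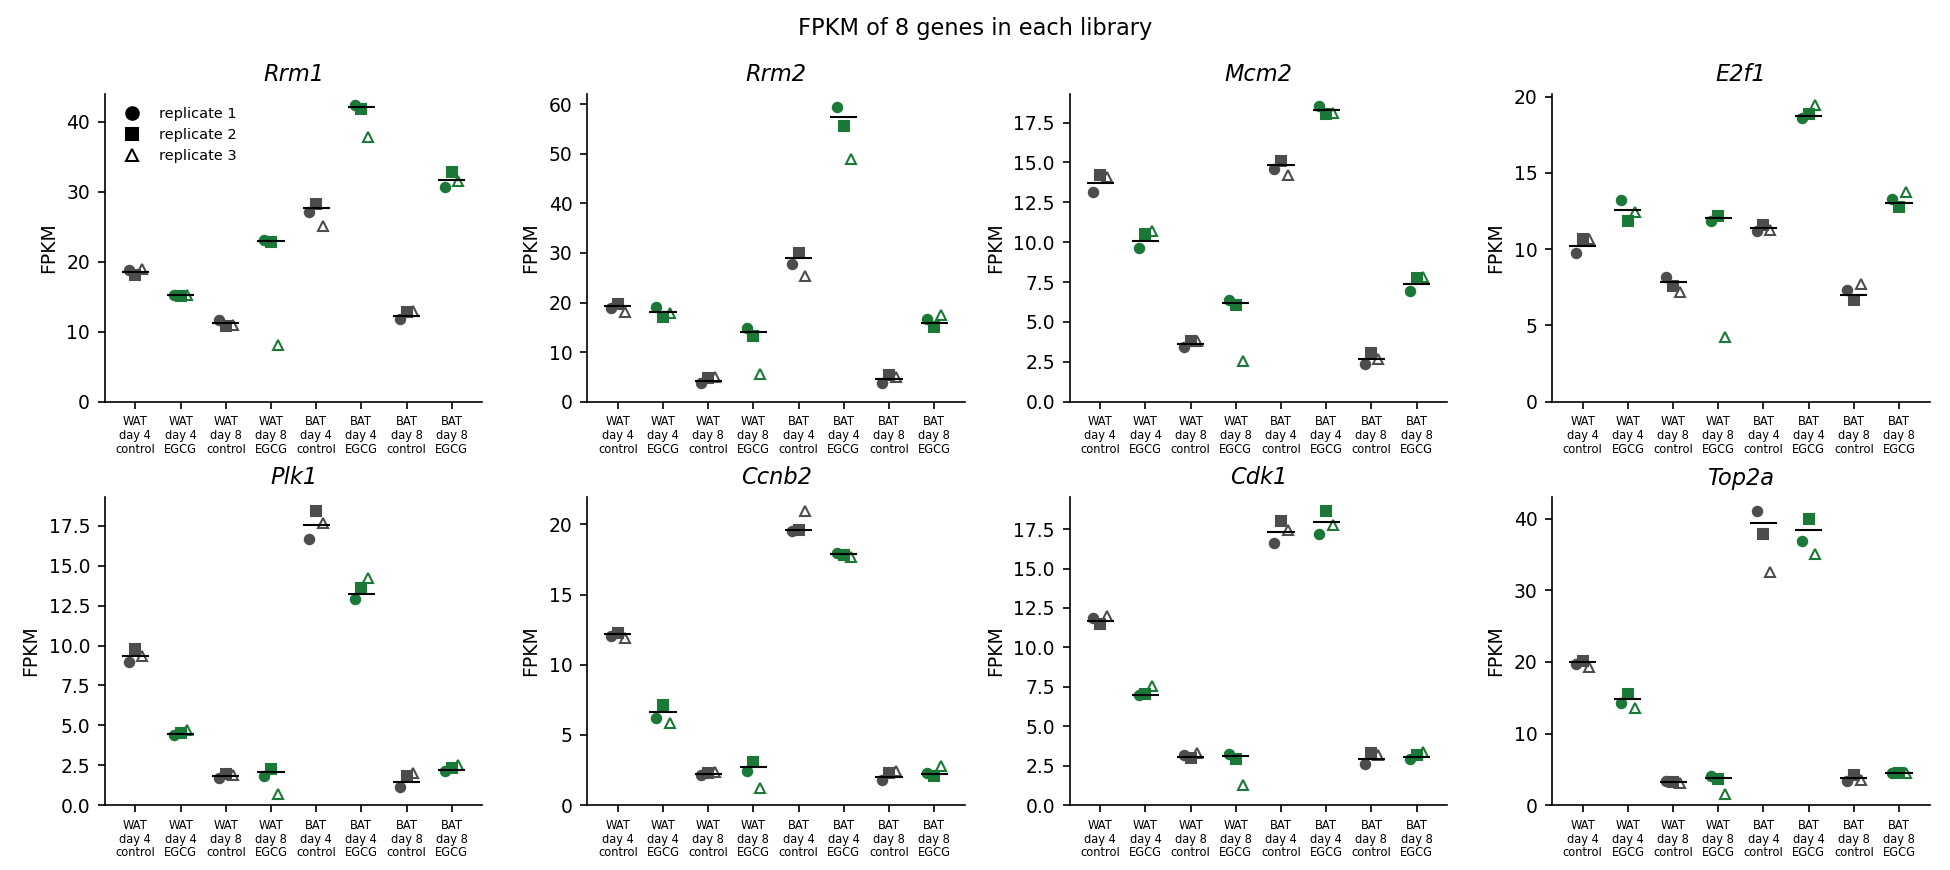
FPKM (y axis, from 0) of 8 genes in each library of the 8 groups (x axis); symbols mark the replicates, grey is control, green is EGCG, and the line is the mean of replicates 1 and 2. Rrm1, Rrm2 and E2f1 are higher with EGCG in BAT on both days, Plk1, Ccnb2 and Cdk1 are lower with EGCG in WAT on day 4, and replicate 3 of WAT day 8 EGCG is low in all 8 panels; in it 61.0% of the reads lay on 5 genes.

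The depots were compared within each day and treatment. On day 4 the genes stood higher in BAT: 41 of 47 in controls, 20 of 20 mitosis and 15 of 20 replication genes, and all 47 with EGCG, while 41.4% and 32.9% of all genes were called higher. Control medians were 0.81 for mitosis and 0.37 for replication genes against 0.15 for all genes, a median that median-ratio scaling moved to 0.02, with 34 genes then called. With EGCG the medians were 1.15 and 0.72 against 0.09. In controls Aurka had the largest difference of the mitosis genes, from 6.37, 6.74 and 7.11 FPKM in WAT to 14.1, 13.8 and 14.5 in BAT (log2 difference 0.98, SE 0.11, adjusted p = 2.35e-05), and Cdc6 that of the replication genes (log2 difference 0.77, SE 0.0993, adjusted p = 6.61e-05). Mcm7, with 26.4, 24.6 and 26.9 FPKM in WAT and 26.0, 27.1 and 26.0 in BAT, had the smallest (0.06, adjusted p = 0.542 by limma). With EGCG, Rrm2 (log2 difference 1.61, SE 0.132, adjusted p = 2.05e-06) and Ccnb1 (log2 difference 1.44, SE 0.10, adjusted p = 6.53e-07) differed most, Ccnb1 standing at 6.40, 6.62 and 6.07 FPKM in WAT and 18.2, 20.6 and 18.4 in BAT. In replicate 3 as deposited 39 of 41 genes called in controls had the same sign, the exceptions being Cdt1 and Gins1. After median-ratio scaling of replicate 3 it was 37, with Mcm3 and Mybl2 as further exceptions. The 15 replication genes called in controls became 9 after quantile normalization.

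On day 8 the depots were closer. In controls 5 genes were higher and 8 lower in BAT, where 31.6% and 22.0% of all genes were called, and class medians were -0.02 and -0.03. The higher ones were Mcm7 (0.26), Cdc45 (0.25), Ccne2 (0.38), Cdk2 (0.36) and Ttk (0.26). Tk1 had the largest difference downwards, with 4.6, 4.15 and 2.67 FPKM in WAT and 2.81, 2.62 and 2.00 in BAT (log2 difference -0.53, SE 0.0657, adjusted p = 3.51e-05), although the WAT value of replicate 3 lay within the BAT range. Mcm3 (-0.36), Mcm2 (-0.32), Foxm1 (-0.32), Mcm6 (-0.18), Tpx2 (-0.18), Bub1b (-0.18) and Mcm4 (-0.16) were also lower. In replicate 3 only 9 of 13 called genes had the same sign. Mcm7 had 11.2 and 10.9 FPKM in WAT and BAT there, Ttk 0.374 and 0.312, Tpx2 2.05 and 2.14 and Bub1b 1.18 and 1.36, each opposite to its call, and these include all 3 mitosis genes called. The 5 lower replication genes became 3 without WAT control replicate 2 and 2 without BAT control replicate 1. With EGCG 5 genes were higher in BAT, Rrm1 (log2 difference 0.45, SE 0.0513, adjusted p = 4.88e-05), Mcm5 (0.36), Ccne2 (0.35), Mcm3 (0.30) and Bub1b (0.19), and none was lower by limma, where 24.4% and 14.0% of all genes were called. At an unadjusted p under 0.05, 11 of the 47 genes differed. The count of 5 became 3 without WAT EGCG replicate 2, 2 without BAT EGCG replicate 1 and 3 without BAT EGCG replicate 2, and after median-ratio scaling 3 genes were higher and 2 lower.

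Other genes of the pathways were counted from lists of 42 further replication genes, of which 41 were tested, and 67 further mitosis genes. With EGCG on day 4 in WAT, 1 of the replication genes rose and 13 fell, and 7 of the mitosis genes rose and 30 fell (31.7% and 44.8% falling, against 19.3% of all genes). In BAT on day 4 the counts were 13 rising and 2 falling for replication and 19 and 3 for mitosis (31.7% and 28.4% rising, against 27.9%). On day 8 they were 15 and 4 for replication and 27 and 2 for mitosis in WAT, and 21 and 13 for replication and 33 and 4 for mitosis in BAT. The shares rising on day 8 were 36.6% and 40.3% in WAT, below the 44.7% of all genes, and 51.2% and 49.3% in BAT, near its 46.5%. Falling shares on day 8 were 9.76% and 2.99% in WAT, below the 18.9% of all genes. In BAT the falling share was 31.7% for replication, above the 26.1% of all genes, and 5.97% for mitosis, below it. Median log2 changes of the replication and mitosis lists were -0.10 and -0.22 in WAT and 0.15 and 0.13 in BAT on day 4, and 0.11 and 0.17 in WAT and 0.22 and 0.22 in BAT on day 8, beside medians of all genes of 0.09, 0.03, 0.17 and 0.17. Gtse1, a G2 and S phase expressed microtubule-binding protein, had the highest log2 change of the mitosis list in each depot on each day (1.76 in WAT and 1.35 in BAT on day 4, 1.73 and 2.05 on day 8). Ung, the uracil glycosylase that removes uracil from DNA, had the lowest of the replication list in WAT on day 4 (-1.17), in WAT on day 8 (-1.05) and in BAT on day 8 (-2.43). From day 4 to day 8 in controls, 38 of the 41 replication genes fell in WAT and 39 in BAT, and 64 and 66 of the 67 mitosis genes (all genes 33.2% and 40.4%), while Pttg1, which encodes securin, was called higher in both (0.84 and 1.0).

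Histone genes of S phase were read with reserve, since their transcripts lack a poly(A) tail and the sources used here do not give the RNA selection. Of 67 such genes matched, 30 were tested. With EGCG on day 8, 22 rose and none fell in WAT and 20 rose and 2 fell in BAT, and on day 4, 8 rose and 1 fell in WAT and 4 rose and 5 fell in BAT. The shares rising on day 8 were 73.3% in WAT and 66.7% in BAT, beside 44.7% and 46.5% of all genes, and the falling share in BAT was 6.67%, beside 26.1%. On day 4 they were 26.7% and 13.3% rising, below the 34.4% and 27.9% of all genes. The median log2 changes on day 8 were 0.72 in WAT and 0.70 in BAT.

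Markers of cell types moved with the same groups. The summed FPKM of 16 mature adipocyte markers was 4055 to 4842 in WAT controls of day 4 and 1042 to 1216 with EGCG, and 7034 to 9009 and 1713 to 1802 in BAT. On day 8 it was 6921 to 7889 against 681 and 743 in replicates 1 and 2 of EGCG-treated WAT (replicate 3 of that group, with most reads on 5 genes, is left out here) and 12450 to 12962 against 539.8 to 556 in BAT, so all 4 EGCG groups were lower without overlap. The sum of 12 macrophage markers was higher with EGCG on day 4, 80.0 to 85.6 against 190.3 to 209.7 in WAT and 185 to 208 against 396 to 475 in BAT. It was lower with EGCG on day 8, 133 to 161 against 63.4 and 66.7 in WAT and 131 to 147 against 67.6 to 68.9 in BAT. This sum was led by Lyz2. Its means on day 4 were 55.4 FPKM in controls and 162 with EGCG in WAT, and 138 and 334 in BAT. In BAT the means of Itgam (2.38 to 2.01) and Cd14 (2.95 to 2.55) were lower with EGCG on day 4. On day 8 Laptm5 (3.91 to 4.76) and Cd14 (2.33 to 2.73) were higher there, while the other markers went with the sum on both days. For 10 endothelial markers the sums were 28.4 to 37.2 and 61.5 to 66.6 in WAT and 22.4 to 29.0 and 56.3 to 63.0 in BAT on day 4, and 33.7 to 37.1 against 41.5 and 44.7 in WAT and 26.7 to 28.6 and 44.7 to 49.8 in BAT on day 8. On day 8 the means of Pecam1 (7.54 to 6.62), Tie1 (1.91 to 1.58) and Cldn5 (2.77 to 1.43) were lower with EGCG in WAT. In BAT on day 8 those of Cldn5 (0.851 to 0.130) and Esam (4.28 to 4.21) were lower. Of 9 endothelial markers tested, 4 were called higher and 1 lower in WAT on day 8 (all genes 44.7% and 18.9%). In BAT on day 8, 6 were called higher and 1 lower (all genes 46.5% and 26.1%). Precursor and fibroblast markers, 12 in number, summed to 9785 to 10656 and 7577 to 8199 in WAT and to 5551 to 6180 and 4260 to 4993 in BAT on day 4. On day 8 the sums were 9463 to 12180 against 5268 and 5598 in WAT and 3357 to 4001 against 2470 to 2530 in BAT, lower with EGCG throughout. These sums were led by the collagen genes Col3a1 and Col1a1 (means of 6214 and 2267 FPKM in WAT day 4 controls, 5220 and 1196 with EGCG). The means of Ly6a, Thy1 and Pdgfrb went the other way there, from 101 to 309, from 68.6 to 104 and from 74.9 to 82.0. In BAT on day 4 those of Pdgfrb and Thy1 went from 70.8 to 122 and from 144 to 248. Ly6a (178 to 211), Cd34 (1.35 to 1.70) and Dpp4 (0.00211 to 0.0366) were also higher there. On day 8 the mean of Pdgfrb went from 75.7 to 148 in WAT and from 62.0 to 219 in BAT. Dpp4 was also higher in WAT (0.319 to 0.876) and BAT (0.00889 to 0.0366). So were Pdgfra (59.2 to 62.0) and Thy1 (195 to 198) in BAT on day 8. Of 11 such markers tested, 2 were called higher and 5 lower on day 4 in each depot (all genes 34.4% and 19.3% in WAT, 27.9% and 20.6% in BAT). On day 8, 1 was higher and 9 lower in WAT (all genes 44.7% and 18.9%), and 1 and 8 in BAT (46.5% and 26.1%). Of 10 skeletal muscle markers 5 reached the minimum for testing. The sum of the 10 was higher with EGCG in WAT on day 4, 55.5 to 58.9 against 97.9 to 103. In BAT on day 4 the sums overlapped, 14.4 to 22.4 in controls against 19.7 to 26.7. On day 8 they overlapped in WAT (31.2 to 37.9 against 34.8 and 42.0) and in BAT (42.3 to 52.0 against 31.9 to 43.7). Aif1 of the macrophage list had no reads in the WAT day 4 control libraries, and of the muscle list Pax7 had none in BAT controls of either day and Myf5 none in WAT day 8 controls and BAT day 8 EGCG. The part of these cell types in the changes of the replication and mitosis genes was not tested.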

How the data were processed

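Libraries were made from the total RNA of primary cells from 2 depots (24 in all). According to the submitters' processing notes FastQC 0.11.9, HISAT2 2.2.0 and HTSeq 0.11 were used with mm9; their settings are not given in the sources used here. The deposited values are FPKM, computed by the authors in 2 tables, and each value corresponded to a whole number of reads (tolerance 0.01 read). Gene symbols and positions came from GENCODE vM1 (NCBIM37). The 47 genes, their classes and all lists were chosen with earlier results of these data known, and the roles within classes after the values were seen. Every one of the 47 genes could be named, and per library values were shown at least once for the 4 most abundant genes of each class and for the replication and mitosis genes with the highest and lowest log2 change in each pairwise comparison, and for Cdk1 and Mcm2, which were chosen after their values were seen.

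Tests were made with limma 3.58.1 in R 4.3.3 on log2(FPKM + 1) of the 16 libraries of replicates 1 and 2, with 1 mean per group and 8 residual degrees of freedom. Genes with FPKM of at least 1 in at least 2 libraries were kept (14095), p-values were two-sided and Benjamini-Hochberg adjusted over all genes within each of 16 contrasts, and genes were called at 0.05. The procedure was tested on simulated data. Other pseudocounts, filters, scalings, a replicate block, both tables together, recovered reads (voom), separate fits and leaving out libraries were tried. Depth limits low genes: 3 reads on a gene of 2 kb amount to 0.0284 to 0.0380 FPKM in replicates 1 and 2. Differences between replicates 1 and 2 were not shared between groups (28 pairs of groups, correlations of -0.079 to 0.081). This cannot show whether replicates of the same number came from the same cells. Promoter motifs were searched on both strands in RefSeq promoters of GRCm38.p6.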

Additional observations from a re-analysis of the deposited data

Results flagged for a closer look

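The tests of a difference in the EGCG effect between depots or days drew attention to 4 comparisons. Between BAT and WAT the effect differed for 22 of the 47 genes on day 4 (46.8% higher in BAT, against 12.0% of all genes), with Rrm1 at 0.86 on the log2 scale. On day 8 it differed for 14 (21.3% higher and 8.51% lower, against 19.4% and 19.7%), with Mcm3 at 0.66. Between day 8 and day 4 it differed for 31 genes in WAT (66.0% higher, against 29.7%), with Rrm1 at 1.23, and for 18 in BAT (31.9% higher and 6.38% lower, against 34.7% and 20.6%), with Rrm1 at 0.71. For the depots on day 8 and for the days in BAT the shares were near or below those of all genes, so these counts are no result about the 47 genes as a group. Rrm1 and Mcm3 stand for the gene with the smallest p in each test.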

How the results depend on the processing

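Counts of called genes among all 47 were compared across alternatives, and counts within a class that moved further stand beside their results above. A mean FPKM filter, a pseudocount of 0.1, both scalings, voom and the replicate block kept each count within 1.5 times; with the block, EGCG called 26 genes in WAT and 19 in BAT on day 4, and 18 and 29 on day 8. Fitting only the groups compared gave 9 (17 before) for EGCG in WAT on day 8, 4 (13) for BAT against WAT in day 8 controls and 8 (14) for the depot difference in EGCG effect on day 8. Without a filter, BAT against WAT with EGCG on day 8 gave 3 (5). Both tables with a replicate block, which includes the library with 61.0% of its reads on 5 genes, gave 10 (27) and 2 (17) for EGCG in WAT on days 4 and 8, 6 (20) and 14 (30) in BAT, 0 (13) and 17 (5) for BAT against WAT on day 8 in controls and with EGCG, 0 (22) and 4 (14) for the depot difference in EGCG effect on days 4 and 8, and 4 (31) and 1 (18) for its day difference in WAT and BAT. In that fit Cdc20 (EGCG, WAT day 8) turned to -0.021 and Mcm7 (depot difference, day 8) to 0.0277. Without that library the same fit gave 37 for the depot difference on day 4 and 12 for BAT against WAT with EGCG on day 8. Leaving out single libraries gave 11 to 16 for EGCG in WAT on day 8, 9 to 16 in BAT on day 4, and 2 to 4 for BAT against WAT with EGCG on day 8. Of 64 single gene changes across settings, 883 values kept their call or lack of a call, 56 lost and 19 gained the call. Direction was compared only where the gene was called in the main or the other fit. Except where stated, causes were not tested. With 2 libraries per group in the tests, small changes may be missed.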
